A study of Mus musculus with 10 samples.

Results

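Glutamate and GABA receptor subunits were followed in mouse cerebral cortex. The members were the genes whose symbol begins with Gria, Grik, Grin, Grid or Grm and a digit, or with Gabra, Gabrb, Gabrg, Gabrd, Gabre, Gabrr or Gabbr, each read by a probe set annotated to that gene alone. The rule took 28 genes with 36 probe sets, of 12393 genes with such a probe set. Of these, 27 code for receptor subunits. Grid2ip, which codes for a protein that binds the delta2 glutamate receptor, is no subunit and is given apart. Subunits to which the annotation used here gives no probe set of their own were not analysed here. A gene was represented by the probe set with the highest mean over all arrays, and its other probe sets served as a check.

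Cortical RNA of 10 male mice aged 6 months was hybridised to 1 Affymetrix GeneChip per animal. By the labels 5 animals were *p97FE65* wild type and 5 were *p97FE65* null. The null allele lacks the exon with the first start codon, so that the full-length form of FE65, an adaptor protein that binds the tail of APP, is lost while the rest of the transcript is still made. It was made in R1 ES cells, which are of another strain, and backcrossed to C57Bl/6J for 10 generations. After that, sequence of the ES cell strain remained on chromosome 7 around the FE65 gene in the study's genotyping. Littermates served as wild type, and the labels do not say which animals form a pair. The FE65 probe sets lie outside the deleted exon and do not check the labels. The values are GC-RMA expression on the log2 scale, in which 1 unit is a doubling, and a difference is the mean of the label null minus that of the label wild type throughout. The signs under the labels run against the study's tables: the orphan receptor Gprc5b, by probe set 1451411_at, was at -1.23 here and is listed as higher in null animals there. A separate PCR assay in the study, on forebrain and aimed at the same part of Gprc5b, also found more of it in null animals. If the labels are exchanged, every sign given here is reversed. The arrays alone could not settle which genotype stands behind a label, so animals are named by their labels.

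The cortex label was checked against marker genes. Of 9 neuronal markers measured, 8 had a mean of at least 5, and so did 4 of 7 cortical transcription factors, Mef2c, Neurod6, Tbr1 and Lhx2. Choroid plexus was read by Ttr (6.37 and 6.22 in the labels wild type and null, SD 1.20 and 0.65), while its other 5 markers lay under 5. Of 6 striatal markers 3 had a mean of at least 5, Tac1, Rgs9 and Penk. Of 7 thalamic markers 2 did, Rora and Slc17a6. How much tissue of other regions the samples held was not tested. Of the cortical factors, Mef2c was lower in the label null at an unadjusted p under 0.05 (-0.18, SE 0.07). The medians of the 10 arrays lay between 3.01 and 3.14, and the lowest correlation of any pair of arrays was 0.9936. The 3′ minus 5′ difference of the Gapdh control, a measure of RNA integrity, lay between -0.04 and 0.27 in the label wild type and between -0.07 and 0.12 in the label null. That of the Actb control was wider, between -0.03 and 0.35 in the label wild type and between -0.03 and 0.37 in the label null.

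Glutamate is the main excitatory transmitter of the cortex. It opens AMPA, kainate and NMDA receptors, which are channels of 4 subunits each, and it activates metabotropic receptors coupled to G proteins. GABA is the main inhibitory transmitter and opens GABA-A receptors, chloride channels of 5 subunits, while GABA-B receptors are G protein-coupled dimers of family C, the family to which Gprc5b also belongs. Subunit composition sets how a channel gates, which ions it passes and where in the cell it is placed.

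No member passed an adjusted p of 0.05 from limma, the linear model fitted across all 22626 probe sets, a count of 0 of 28 genes. The lowest adjusted limma p of any member probe set was 0.999, and of any probe set 0.822. At an unadjusted limma p under 0.05 there were 2 of 28 (7.14%), Grin2c and Gabrg1, both lower in the mice labelled null. Over the brightest probe sets of all genes, 3.94% passed that threshold, 2.61% lower and 1.33% higher. Over all probe sets of the members 3 of 36 passed, all lower, against 3.67% of all probe sets tested, 2.43% lower. By the brightest probe set, the labels did not overlap for 0 of 28 members, against 0.686% of all genes. Both members that passed were dim, with means of 3.82 and 2.98. Of the 10 members with a mean of at least 5, 0 passed, against 6.52% of all genes of such brightness. Differences were small: 19 of 28 members had group means within 0.1 of each other, 16 had a negative difference and 12 a positive one. The median difference over members was -0.02, and over the brightest probe sets of all genes -0.0021. With a mean of at least 5, it was -0.017 over members and -0.044 over all such genes. The median size of the difference was 0.084 over members and 0.050 over all genes. For the members with a mean of at least 5, the sizes were 0.088 over members and 0.080 over all such genes. All 10 had a 95% confidence interval within 0.5 either way, from -0.43 at the lowest bound to 0.35 at the highest.

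**Figure D1:**
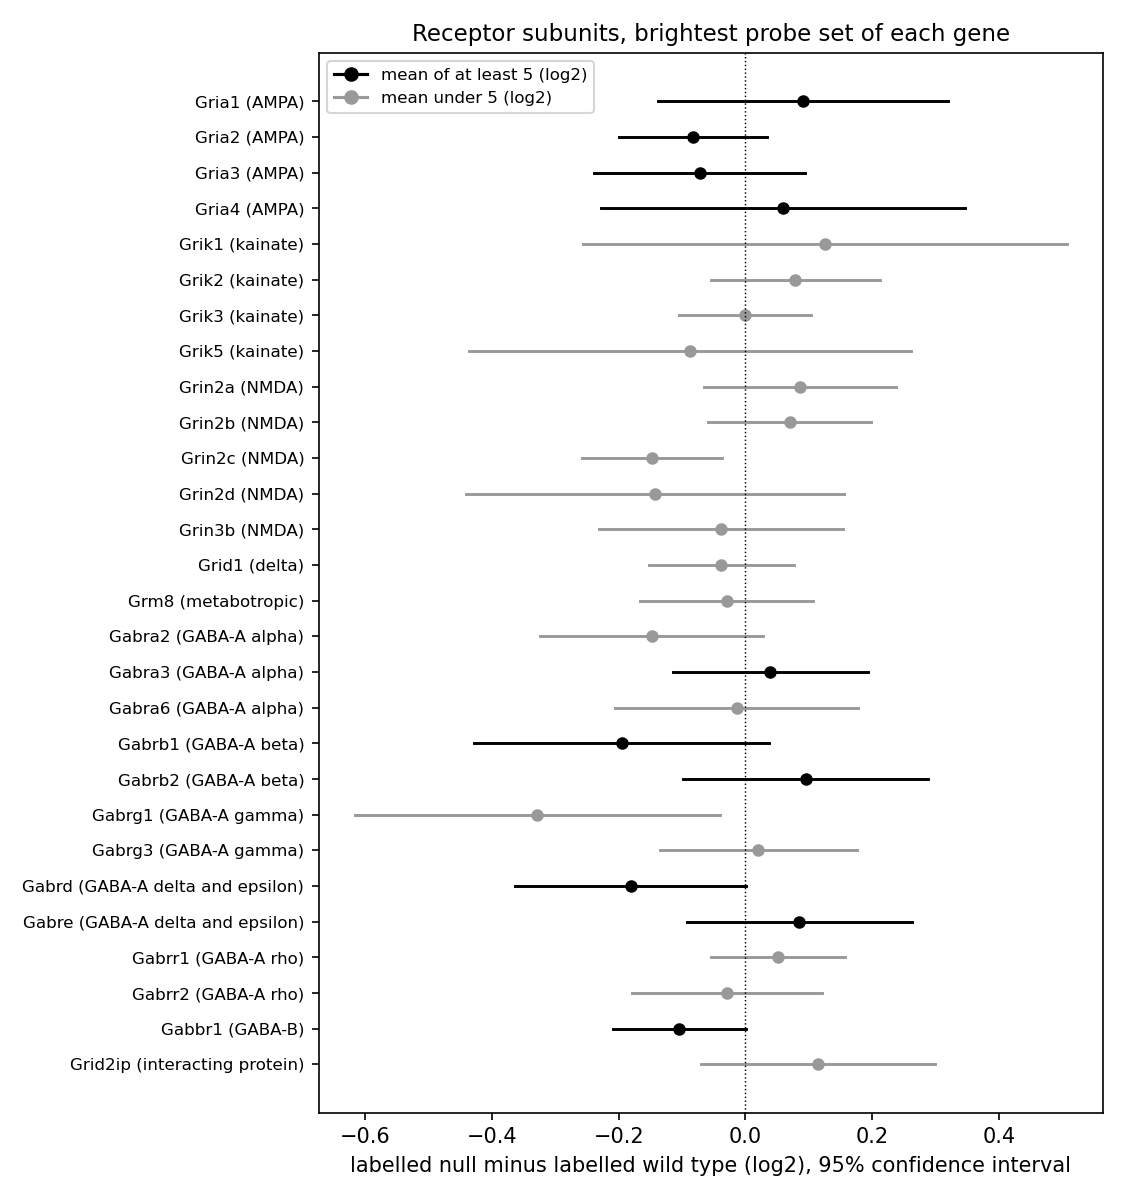
Mean of the label null minus mean of the label wild type (log2, horizontal axis) for the brightest probe set of each of the 28 members (vertical axis, with family), as a point with its 95% confidence interval from limma (n = 5 mice per label). Black marks a mean of at least 5 and grey a lower mean, and the intervals of Grin2c and Gabrg1 alone leave out 0.

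How bright a probe set is depends on its probes as well as on the transcript, so levels are not compared between genes. They do set what could be seen. Of the 28 members, 10 had a mean of at least 5, 3 lay between 3.5 and 5, and 15 lay under 3.5, near the floor of GC-RMA. The share with a mean of at least 5 was 35.7%, and over all genes 39.7%. The 10 were the AMPA receptor genes Gria1, Gria2, Gria3 and Gria4, the GABA-A receptor genes Gabra3, Gabrb1, Gabrb2, Gabrd and Gabre, and the GABA-B receptor gene Gabbr1. The 4 kainate and 5 NMDA receptor genes among the members, which are not the whole families, were under 5, as were Grid1 and Grm8. For such probe sets a small difference says little about the transcript.

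AMPA receptors carry most of the fast excitatory current. Gria1 codes for GluA1, the subunit whose insertion at synapses follows activity. It read 10.003, 9.49, 9.83, 10.04 and 9.93 in the mice labelled wild type (replicates 1 to 5) and 10.13, 9.97, 9.78, 9.93 and 9.93 in those labelled null. The groups overlapped, with wild type replicate 2 the lowest of all 10. The difference was 0.09 (SE 0.10, exact permutation test, two-sided, p = 0.5), and without wild type replicate 2 it was 0.000360. Gria2 codes for GluA2, the subunit whose edited form keeps calcium out of the channel. It read 12.02, 11.97, 12.20, 12.06 and 12.05 in the mice labelled wild type and 11.94, 12.08, 12.01, 11.90 and 11.95 in those labelled null. The groups overlapped, and the difference was -0.08 (SE 0.05, exact permutation p = 0.127). Its spread between mice of 1 label was 0.077 (residual SD), at percentile 4.52 of the spreads of all probe sets with a mean of at least 5.

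Gria3 and Gria4 code for the remaining AMPA subunits, and Gria4 is known from fast-firing interneurons. Gria3 was at 9.47 ± 0.11 (SD, n = 5 mice) in the label wild type and 9.39 ± 0.14 (SD, n = 5) in the label null, and Gria4 at 6.20 ± 0.16 and 6.26 ± 0.28. Both groups overlapped for each gene. Second probe sets of Gria1 and Gria2 gave -0.03 (SE 0.17) and -0.18 (SE 0.20). The latter, 1453098_at, held null replicate 5 at 7.16, while the other 9 mice lay between 7.84 and 8.35.

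**Figure D2:**
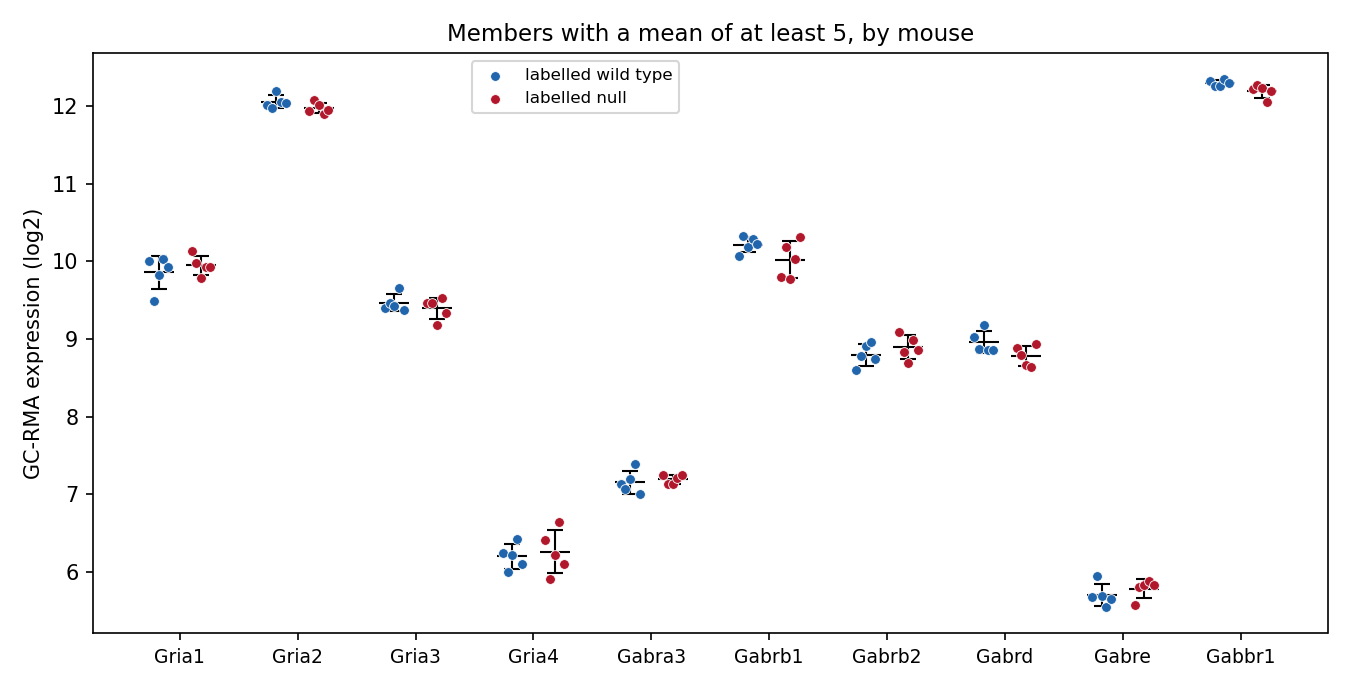
GC-RMA expression (log2, vertical axis, not starting at 0) of the 10 members with a mean of at least 5 (horizontal axis), with 1 point per animal (wild type label in blue and null label in red, 5 animals each) and black bars for the mean and SD. The labels overlap for each of the 10, and the groups come closest to separating for Gabbr1, where 1 mouse labelled null lies among those labelled wild type.

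The balance of subunits was compared within each mouse, which takes out what shifts a whole array. Of 9 pairs planned, both genes were measured for 3, and p-values were adjusted over these 3. Gria2 minus Gria1 was 2.02, 2.48, 2.37, 2.02 and 2.12 in the mice labelled wild type and 1.81, 2.11, 2.23, 1.97 and 2.02 in those labelled null. The groups overlapped. They differed by -0.17 (exact permutation test, two-sided, p = 0.167, adjusted p = 0.5). Gria2 minus Gria3 was 2.59 ± 0.14 (SD, n = 5) and 2.58 ± 0.17 (SD, n = 5), a difference of -0.01 (exact permutation p = 0.913, adjusted p = 0.913). Grin2a minus Grin2b, the pair whose balance shifts as synapses mature, differed by 0.02 (exact permutation p = 0.865, adjusted p = 0.913), but both probe sets lay near the floor. Within a probe set pair the value itself is no ratio of transcripts, since the probe sets differ in brightness. Its change between labels can be compared.

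**Figure D3:**
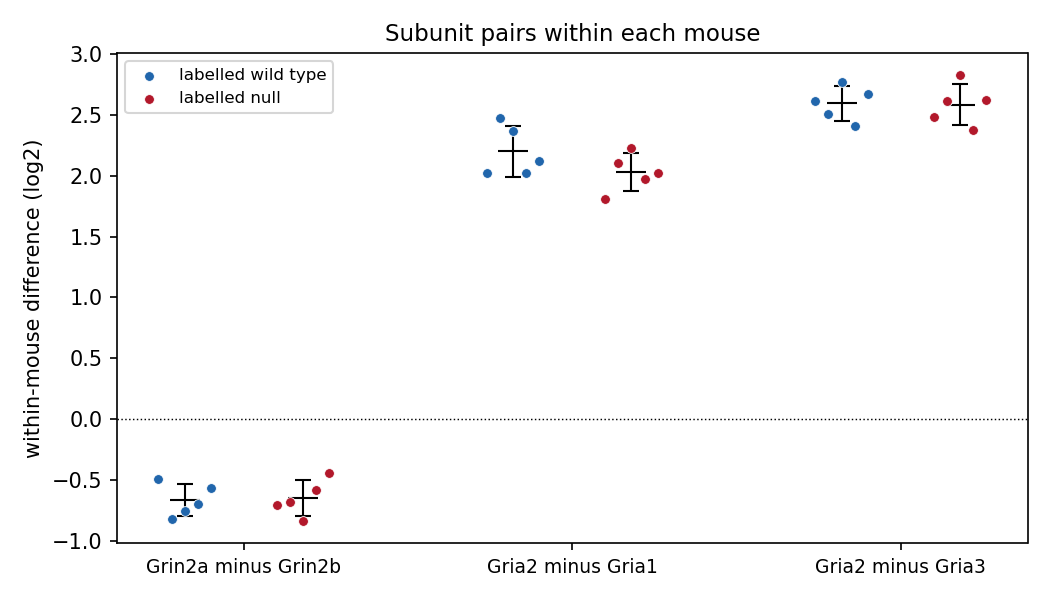
Within-mouse difference of a pair of subunit probe sets (log2, vertical axis) for the pairs on the horizontal axis, with 1 point per animal (wild type label in blue and null label in red, 5 animals each) and black bars for the mean and SD. The labels overlap for each pair, and Gria2 minus Gria1 has the widest gap between means, -0.17.

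NMDA receptors pass calcium and are needed for many forms of synaptic plasticity. Grin2a and Grin2b code for the GluN2 subunits most used in adult cortex. Grin2a read 2.34, 2.13, 2.24, 2.36 and 2.24 in the label wild type and 2.28, 2.28, 2.21, 2.49 and 2.47 in the label null. Grin2b read 2.83, 2.95, 2.99, 3.06 and 2.81, and 2.99, 2.96, 3.05, 3.08 and 2.91. Both overlapped between labels, with differences of 0.09 (SE 0.07) and 0.07 (SE 0.06) and exact permutation p = 0.254 each. By its second probe set Grin2b was at 0.09 (SE 0.08).

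Grin2c codes for GluN2C, best known from cerebellar granule cells and also made by astrocytes and some interneurons. It read 3.87, 3.88, 4.01, 3.92 and 3.78 in the mice labelled wild type and 3.78, 3.76, 3.74, 3.79 and 3.66 in those labelled null. The groups overlapped by wild type replicate 5 alone, which lay just below null replicates 1 and 4. The difference was -0.15 (SE 0.05), a 1.11-fold lower value, with a 95% confidence interval from -0.26 to -0.04. The unadjusted limma p was 0.0137 and the exact permutation p = 0.0238 (two-sided). Grin2c had an unadjusted p under 0.05 under 17 of 18 alternative settings. The exception, setting values under 4 to 4, left little of it to measure. All these settings reuse the same mice and add no independent support. Of 10 cerebellar markers measured, 5 had a mean of at least 5, among them Calb1 and Zic1, which other brain regions also express, and the other 5 lay near the floor, Pcp2 and Cbln3 included. Of the 10, Cbln1 was higher in the label null at an unadjusted p under 0.05 and 0 were lower, with a median difference of 0.01. Their summed level ranged from 11.86 to 12.15 in the label wild type and from 11.76 to 12.05 in the label null. The 10 astrocyte markers measured had a median difference of -0.07, and 1 of them, S100b, a calcium-binding protein, was lower at an unadjusted p under 0.05 (-0.25, SE 0.10). Their summed level ranged from 14.29 to 14.60 in the label wild type and from 14.26 to 14.47 in the label null, and the part of either list in the Grin2c value was not tested. In whole tissue, fewer cells of a type and less RNA per cell cannot be told apart.

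Grin2d, an NMDA subunit of interneurons, and Grin3b, best known from motor neurons, were at -0.14 (SE 0.13) and -0.04 (SE 0.09). Among the kainate receptor genes, Grik1 was at 0.13 (SE 0.17), Grik2 at 0.08 (SE 0.06), Grik3 at 0.00 (SE 0.05) and Grik5 at -0.09 (SE 0.16). The delta receptor gene Grid1 and the presynaptic metabotropic receptor gene Grm8 were at -0.04 (SE 0.05) and -0.03 (SE 0.06). None had an unadjusted p under 0.05, and exact permutation p-values of these 8 ranged from 0.214 to 1. Grid2ip was at 0.11 (SE 0.08). The members Grik5, Grin2d and Gabrg3 lie on chromosome 7, all before Homer2 in gene order. So 0 members lay in the interval from Homer2 to Gprc5b on either side of FE65. The study did not map how far the retained ES cell sequence reaches, so this count does not place Grik5, Grin2d or Gabrg3 outside it.

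GABA-A receptors of the cortex are mostly built from alpha, beta and gamma subunits. Those with a delta subunit lie outside synapses. In gene order, Gabrg1, Gabra2 and Gabrb1 are near neighbours on chromosome 5, with 2 protein-coding genes between Gabra2 and Gabrb1 that have no probe set named here. All 3 members had lower means in the label null. Gabrg1 codes for a gamma subunit found in glia and in parts of the forebrain. It read 2.93, 3.39, 3.29, 3.05 and 3.07 in the mice labelled wild type and 2.46, 2.98, 2.9999, 2.61 and 3.02 in those labelled null. Wild type replicate 1 lay among the mice labelled null, and the other 4 above them. The difference was -0.33 (SE 0.13), with a 95% confidence interval from -0.62 to -0.04, an unadjusted limma p of 0.0291 and an exact permutation p = 0.0714 (two-sided). Without wild type replicate 2 or 3, or null replicate 1 or 4, the unadjusted limma p was between 0.0663 and 0.0711. The second probe set of Gabrg1, dimmer still, gave 0.06 (SE 0.07).

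Gabra2 codes for an alpha subunit of synapses on the axon initial segment and elsewhere. It read 4.42, 4.05, 4.21, 4.46 and 4.21 in the label wild type and 4.17, 4.205, 4.01, 4.08 and 4.15 in the label null. Wild type replicate 2 lay below 4 of the 5 mice labelled null, and the other 4 of its label lay above all of them. The difference was -0.15 (SE 0.08, exact permutation p = 0.111). Gabrb1 codes for a beta subunit. It read 10.07, 10.33, 10.19, 10.29 and 10.22 in the label wild type and 9.80, 10.18, 9.78, 10.04 and 10.32 in the label null. Null replicates 1 and 3 were the lowest, and null replicate 5 was near the top of both labels. The difference was -0.20 (SE 0.11, exact permutation p = 0.127). Neither gene had an unadjusted limma p under 0.05, so what the neighbours share is a direction and not a call.

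The sequences before the starts of these 3 neighbours are shown because they were read side by side here, and differ in makeup. Each is 250 bases long, from RefSeq on mouse assembly GRCm38.p6, and ends at the base before the annotated start. They lie at chr5:70842618-70842867 (minus strand) for Gabrg1, chr5:71095850-71096099 (minus strand) for Gabra2 and chr5:71657671-71657920 (plus strand) for Gabrb1. Capitals mark the motifs searched on both strands: the GC box GGGCGG, the TATA box TATAAA and the CRE core TGACG.
Gabrg1: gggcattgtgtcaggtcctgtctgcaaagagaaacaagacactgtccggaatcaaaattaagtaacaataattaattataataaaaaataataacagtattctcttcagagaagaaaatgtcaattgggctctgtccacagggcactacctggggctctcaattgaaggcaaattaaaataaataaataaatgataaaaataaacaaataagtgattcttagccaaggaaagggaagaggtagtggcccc
Gabra2: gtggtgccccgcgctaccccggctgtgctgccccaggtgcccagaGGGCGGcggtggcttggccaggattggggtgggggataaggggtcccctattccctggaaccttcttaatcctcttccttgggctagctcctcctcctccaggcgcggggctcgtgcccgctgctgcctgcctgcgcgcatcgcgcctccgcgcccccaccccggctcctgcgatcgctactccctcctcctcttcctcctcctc
Gabrb1: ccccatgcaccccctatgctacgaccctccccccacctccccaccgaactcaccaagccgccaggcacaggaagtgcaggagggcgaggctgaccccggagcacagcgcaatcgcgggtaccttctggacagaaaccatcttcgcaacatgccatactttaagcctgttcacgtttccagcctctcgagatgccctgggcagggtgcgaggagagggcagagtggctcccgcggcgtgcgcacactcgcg
The window of Gabrg1 was 35.6% G and C with 1 CpG. Those of Gabra2 and Gabrb1 were 70.0% and 64.4% with 18 CpG each. The window of Gabra2 held 1 GC box, and the other 2 held none of the 3 motifs. Of 32851 such windows over all genes, 32.7% held a GC box, 12.4% a TATA box and 17.8% a CRE core. Of the 28 members 21 had an entry in that table, and by 1 window per gene, 11 of them held a GC box, 3 a TATA box and 1 a CRE core. Expression was measured and promoter use was not, so the letters describe the genes and no more.

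**Figure D4:**
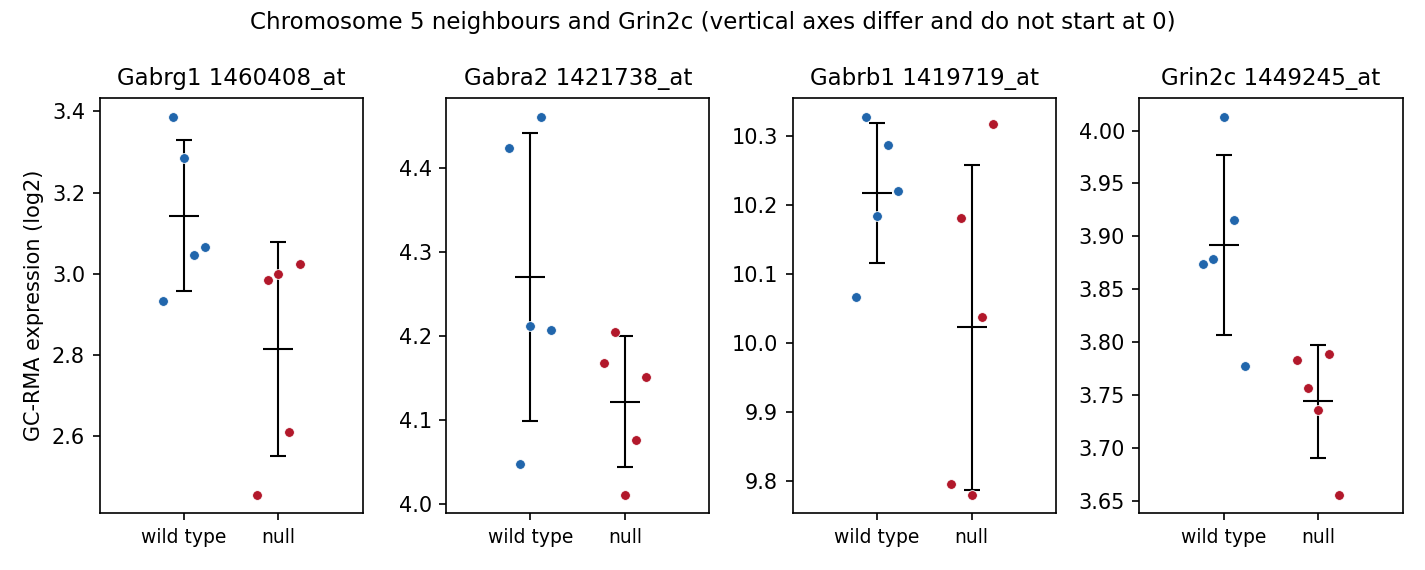
GC-RMA expression (log2, vertical axes, which differ between panels and do not start at 0) of the chromosome 5 neighbours Gabrg1, Gabra2 and Gabrb1 and of Grin2c, by label (horizontal axis), with 1 point per animal (wild type label in blue and null label in red, 5 animals each) and black bars for the mean and SD. Means are lower in the label null in all 4 panels, by 0.33, 0.15, 0.20 and 0.15 on the log2 scale, and the labels overlap in each.

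Gabrd codes for the delta subunit of receptors outside synapses. It read 9.03, 8.88, 9.19, 8.86 and 8.86 in the mice labelled wild type and 8.88, 8.79, 8.66, 8.63 and 8.94 in those labelled null. The groups overlapped in the middle, with wild type replicates 1 and 3 above all the others. The difference was -0.18 (SE 0.08), with an unadjusted limma p of 0.0517 and an exact permutation p = 0.0952. Gabrb2, the beta subunit most used in adult cortex, ran the other way within the spread. It read 8.61, 8.78, 8.91, 8.96 and 8.74 in the label wild type and 9.09, 8.84, 8.69, 8.99 and 8.87 in the label null, a difference of 0.10 (SE 0.09, exact permutation p = 0.333). The groups overlapped over most of their range. Gabra3, an alpha subunit of deep layers and interneurons, was at 7.16 ± 0.15 (SD, n = 5) and 7.19 ± 0.06 (SD, n = 5), and Gabre, a rare epsilon subunit, at 5.70 ± 0.15 and 5.78 ± 0.12. Gabra6, a subunit of cerebellar granule cells, was near the floor by both of its probe sets, with group means between 1.79 and 1.89. Gabrg3 and the retinal rho subunit genes Gabrr1 and Gabrr2 were near the floor as well, with group means from 1.52 to 2.02 and differences of 0.02, 0.05 and -0.03.

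Gabbr1 codes for GABA-B1, the subunit of the GABA-B receptor that binds GABA, and was the member with the most probe sets, 4. By the brightest, 1455021_at, it read 12.32, 12.26, 12.26, 12.35 and 12.31 in the mice labelled wild type and 12.22, 12.27, 12.24, 12.05 and 12.20 in those labelled null. Null replicate 2 alone lay among the mice labelled wild type. The difference was -0.10 (SE 0.05), with a 95% confidence interval from -0.21 to 0.0013. The unadjusted limma p was 0.0523 and the exact permutation p = 0.0238 (two-sided). The spread between mice of 1 label, 0.066 (residual SD), lay at percentile 2.58 of the spreads of all probe sets with a mean of at least 5.

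By probe set 1437188_at, Gabbr1 read 10.68, 11.01, 10.80, 10.91 and 10.78 in the mice labelled wild type and 10.47, 10.55, 10.64, 10.31 and 10.67 in those labelled null. The labels did not overlap, the lowest wild type animal being at 10.682 and the highest null animal at 10.674. Over all probe sets 0.623% did not overlap, 0.331% with the null label lower, and of the 36 of the members this was the only 1. The difference was -0.31 (SE 0.08), a 1.24-fold lower value, with a 95% confidence interval from -0.49 to -0.13. Its unadjusted limma p was 0.0032, its adjusted limma p 0.999, and its exact permutation p = 0.00794 (two-sided), the smallest that 5 mice against 5 allow. The unadjusted p stayed under 0.05 in all 18 alternative settings that gave this probe set a value, from 0.00187 to 0.00927. Those settings reuse the same mice, and the probe set was singled out for its separation, so they add no independent support.

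The other probe sets of Gabbr1 add little. By 1422051_a_at it was at -0.24 (SE 0.25), with null replicate 2 at 7.83 and the other 9 mice between 8.77 and 9.38, and 1425595_at was near the floor at 1.79 and 1.83. Whether the brighter probe sets moved by the same amount was asked after their values were seen. Within each mouse, 1437188_at minus 1455021_at was -1.46 ± 0.14 (SD, n = 5) in the label wild type and -1.67 ± 0.10 (SD, n = 5) in the label null, a difference of -0.21. Since 1437188_at was picked for its separation of the labels, this value is a description and supports nothing further. The region of the transcript that each reads is not given in the annotation used here.

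**Figure D5:**
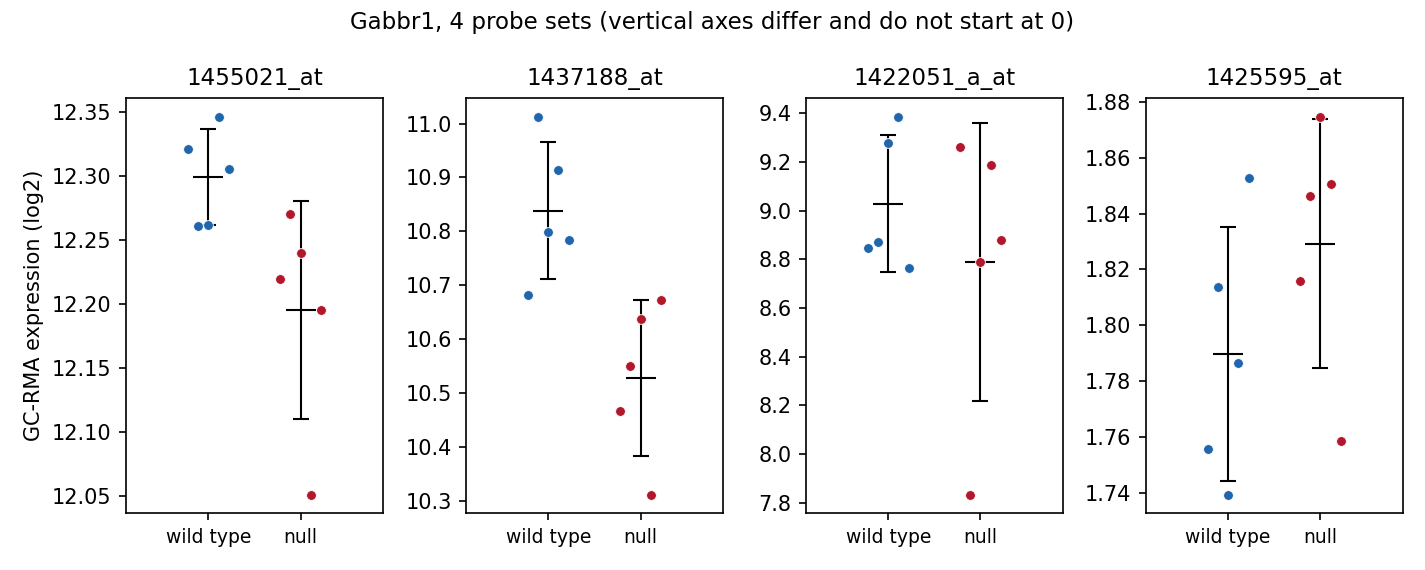
GC-RMA expression (log2, vertical axes, which differ between panels and do not start at 0) of Gabbr1 by each of its 4 probe sets, brightest first, by label (horizontal axis), with 1 point per animal (wild type label in blue and null label in red, 5 animals each) and black bars for the mean and SD. The labels separate by 1437188_at alone, and 1422051_a_at holds 1 mouse labelled null at 7.83.

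The 250 bases before the Gabbr1 start, at chr17:37045716-37045965 (plus strand, GRCm38.p6, RefSeq), are shown because 1 of the 4 Gabbr1 probe sets, though not the brightest, was the only one of the members without overlap. Capitals mark the same motifs as above.
Gabbr1: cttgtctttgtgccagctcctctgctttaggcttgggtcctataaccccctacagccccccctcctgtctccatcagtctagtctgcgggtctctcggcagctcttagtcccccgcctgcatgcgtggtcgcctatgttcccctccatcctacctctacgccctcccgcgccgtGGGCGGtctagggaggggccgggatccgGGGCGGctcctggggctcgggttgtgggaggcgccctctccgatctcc
This window was 66.0% G and C, with 16 CpG and 2 GC boxes.

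Markers of whole cell classes lay beside these values. At an unadjusted limma p under 0.05, 2.61% of all genes by their brightest probe set were lower in the label null and 1.33% higher. Of genes with a mean of at least 5, 6.52% passed either way. Of 9 neuronal markers, 5 were lower in the label null at an unadjusted limma p under 0.05 and 0 higher, with a median difference of -0.20. They were Eno2, Rbfox3, Nefl, Nefm and Tubb3, while Snap25, Syt1, Stmn2 and Map2 had differences from -0.09 to 0.25. The summed level of the neuronal list ranged from 15.03 to 15.18 in the label wild type and from 14.86 to 15.09 in the label null. Of 10 oligodendrocyte markers 3 were lower and 0 higher, with a median of -0.18 and summed levels from 14.43 to 14.82 and from 14.34 to 14.52. Of 11 interneuron markers 1 was higher and 0 lower, Reln, a secreted matrix protein (0.34, SE 0.10). Of 9 microglial and 9 endothelial markers 0 passed either way, as of 6 striatal and 6 choroid plexus markers. Among 10 cerebellar markers Cbln1 was higher and among 7 thalamic markers Cacna1g, a calcium channel gene, lower (-0.25, SE 0.07). None of these passed an adjusted p of 0.05, and their part in the values of Gabbr1, Gabrg1 and Gabrd was not tested.

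Genes that work with the receptors were taken from fixed lists, and 0 passed an adjusted limma p of 0.05 in any of them. Over the brightest probe sets of all genes, 2.61% were lower and 1.33% higher at an unadjusted limma p under 0.05. Among genes with a mean of at least 5, 6.52% passed either way, and 11 of the 12 GABA-A receptor partners were that bright. Of 12 partners of GABA-A receptors measured, 3 were lower in the label null at an unadjusted limma p under 0.05 and 0 higher, and the median was -0.02. These were Nlgn2, the adhesion protein of inhibitory synapses (-0.28, SE 0.10), Zdhhc3, an enzyme that palmitoylates gamma subunits (-0.22, SE 0.09), and Gphn, the gephyrin scaffold (-0.20, SE 0.09). The GABA-A receptor-associated genes Gabarap, Gabarapl1 and Gabarapl2 were at 0.01, -0.02 and 0.08. Of the 12 partners, 9 had a negative difference and 3 a positive one. Of 22 partners of AMPA, kainate and NMDA receptors, 1 was higher and 2 lower, with a median of -0.0060. Cbln1, a ligand of delta receptors, was at 0.26 (SE 0.08) from a mean of 2.45. Cnih2, an auxiliary AMPA subunit, was at -0.30 (SE 0.12). Cacng2, the AMPA auxiliary subunit stargazin, was at -0.12 (SE 0.05), with label means of 3.15 and 3.03, near the floor.

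Of 19 partners of metabotropic and GABA-B receptors, 1 was higher and 1 lower, with a median of 0.03. Homer2, a scaffold of group I metabotropic receptors and a gene of the interval around FE65, was at 0.41 (SE 0.07), and Gnai2, an inhibitory G protein of the kind GABA-B receptors use, at -0.26 (SE 0.10). The potassium channel genes Kcnj3, Kcnj6 and Kcnj9, which code for effectors of GABA-B receptors, were at 0.24, 0.11 and -0.08 without passing. Kcnj6 lay near the floor, with label means of 2.80 and 2.91. Kcnj3 had an SD of 0.08 in the label wild type and 0.38 in the label null. Of 7 genes of GABA synthesis, transport and breakdown, and of 9 of glutamate release and uptake, 0 had an unadjusted p under 0.05. Their medians were -0.06 and -0.04, with Gad1 at -0.11 and Gad2 at 0.07. The glial glutamate transporter gene Slc1a2 was at -0.04, with label means of 4.47 and 4.43. Slc1a3, also of glia, was at -0.16, with label means of 10.4 and 10.2. Of 10 relatives outside the rule, such as the glycine receptor subunits, 0 passed by the probe set used for each, and Glrb had the smallest p at -0.34 (SE 0.17). Gprc5b was among these 10, read there by a probe set other than 1451411_at, and was at -0.14 (SE 0.18). By 1451411_at, which was not used for the list, it was at -1.23.

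The members' deviations were also taken mouse by mouse. The median deviation of the 28 members from their label means ranged from -0.06 to 0.06 over the 10 arrays. For the 10 brighter members it ranged from -0.09 in null replicate 3 to 0.12 in wild type replicate 4. In that mouse 2 of 10 lay below the label mean, and in wild type replicate 2, at -0.06, 8 of 10 did. Over all probe sets with such a mean these mice were at 0.04 each. The largest such deviation of the 10 arrays was 0.13, in null replicate 5. The spread between mice of 1 label was smallest for Gabbr1 and Gria2 among these 10 and largest for Gria4, at 0.23 (residual SD).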

How the data were processed

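Expression was measured on 10 Affymetrix mouse arrays, 1 per mouse. The authors made the deposited log2 values with GC-RMA, a method that corrects background from each probe's base content, brings arrays to a common distribution and gives 1 value per probe set. No version of it is named in the sources used here. GC-RMA compresses differences of dim probe sets. Groups come from the sample labels. Left out were 64 control probe sets, and 22626 were tested. In the platform's annotation 20380 had 1 gene, 691 several and 1555 none, and all 36 member probe sets were matched to the annotation of GRCm38.p6, used for names, gene order and promoter sequence.

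Differences were fitted with limma 3.58.1 in R 4.3.3 (lmFit, eBayes, Benjamini-Hochberg over all probe sets), with no pairing and no filter on dim probe sets. Single probe sets and within-mouse pairs were compared by exact permutation tests on mean differences. The fit was tested on simulated data. Arrays have no depth, and their number limits the precision. The p-values set the difference between labels against the spread between mice of a label.

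Values of every mouse are given for members with an unadjusted limma p under 0.05 by any probe set, those without overlap, those of the Homer2 to Gprc5b interval, and Gria1, Gria2, Grin2a, Grin2b, Gabrb2 and Gabbr1 (5 more subunits of that list had no probe set here and were not analysed here); Gabra2, Gabrb1 and Gabrd were added after their values were seen. Of each partner list, up to 3 genes with the smallest p under 0.05 are named; further ones, and the neighbourhood on chromosome 5, were chosen after seeing the values. The members and lists were chosen with earlier results of these data known. Alternatives were a replicate block, quantile normalization, median centring, a floor, a filter on dim probe sets, other variance models, the methods' t-test, the mean of a gene's probe sets and leaving out each array.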

Additional observations from a re-analysis of the deposited data

Results flagged for a closer look

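All 36 member probe sets and the 3 within-mouse pairs were checked for a mouse far from the others of its label. Over 78 groups of 5 mice, 7 were picked out, and chance gives about 1 in 20, or 3.9. For Gabra6, the cerebellar alpha subunit, wild type replicate 4 was at 2.18, above the next at 1.85. For Grin3b, wild type replicate 2 was at 2.88, above the next at 2.50. For the kainate subunit gene Grik1, wild type replicate 1 was at 2.72, below the next at 3.25. For Grm8, null replicate 2 was at 2.83, below the next at 3.01. For Gabre, the epsilon subunit, null replicate 1 was at 5.58, below the next at 5.80. By the second probe set of Grin2b, null replicate 4 was at 2.51, above the next at 2.22. By the second probe set of Gria2, null replicate 5 was at 7.16, below the next at 8.06. These values are on the log2 scale, and the 7 fall on 7 different mice. Of the 7 probe sets, those of Gabre and Gria2 had a mean of at least 5.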

How the results depend on the processing

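The count of members at an unadjusted limma p under 0.05, 2 by the fit as reported, was 0 without probe sets of mean under 5, which leaves out both members, 1 with values under 4 set to 4, and 4 with array weights. It ranged from 1 to 5 when 1 array was left out: 4 without wild type replicate 2, 1 without wild type replicate 3 or null replicate 4, and 5 without null replicate 5, when 7.31% of all probe sets passed. Under a replicate block the count was 3, Gabrb1 joining, against 4.76% of all probe sets. The mice were littermate pairs, but the labels do not say that the numbers mark them. Deviations from the label means of same-numbered arrays correlated at 0.457, 0.0757, 0.0474, 0.0824 and 0.0716 for numbers 1 to 5 over all probe sets, and at 0.535, 0.0664, 0.105, 0.217 and 0.101 over those with a mean of at least 5. Over all probe sets number 1 alone had its own number as best partner. Paired by number, Gria2 minus Gria1 was lower in the null animal in 5 of 5 pairs (exact sign-flip permutation test, two-sided, p = 0.0625, the smallest that 5 pairs allow, adjusted p = 0.188). The methods' t-test gave 2, Grin2c and Gabbr1, and the mean of a gene's probe sets 3, Gabbr1, Gabrd and Grin2c. Members without overlap, 0 as reported, ranged from 0 to 1 when an array was left out: Gabrg1, Gabra2 and Grin2c without wild type replicates 1, 2 and 5, and Gabbr1 without null replicate 2. The median difference over members, -0.02, lay between -0.0426 and 0.00558 with an array left out, turning positive without wild type replicate 2, null replicate 2 or null replicate 5, and between -0.0218 and 0 under the other settings. Within-mouse pairs near 0 changed sign when an array was left out: Grin2a minus Grin2b ranged from -0.0371 to 0.0626 and Gria2 minus Gria3 from -0.0708 to 0.0419. Gria2 minus Gria1 ranged from -0.22 to -0.11 and kept its sign. The Gabrg1 difference was -0.13 by the mean of its probe sets and -0.38 to -0.24 with an array left out, and its unadjusted p was under 0.05 in 11 of 17 alternatives. With an array left out, the difference turned its sign for 9 of 28 members, Gria4, Grik1, Grik3, Grin3b, Grm8, Gabra3, Gabra6, Gabrg3 and Gabrr2, whose reported differences were at most 0.13 in size. For Grin2c, Gabrg1, Gabbr1, Gria1, Gria2, Grin2a, Grin2b and Gabrb2, which were followed under the other settings too, no alternative gave an adjusted p under 0.05. The cause of these changes was not tested. Low signal limits the 18 members with a mean under 5.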
